A study of Quercus robur with 6 samples.

Results

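miR160 was followed through 6 degradome libraries of pedunculate oak (Quercus robur) roots. The assay captures RNA fragments that have lost their cap and sequences them from the 5′ end, so a transcript cut under the guidance of a miRNA shows up as reads that begin at one base, the slice position. All table entries that carried the name qrb-miR160 were taken, and they gave 4 cleavage sites on 4 transcripts, out of 89 sites on 85 transcripts for 27 miRNA names. A site is a slice position on a transcript, and a call is the entry of a site in one library. Of the 231 calls in the series, 24 (10.4%) belonged to miR160.

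The seedlings were wild-type plants kept for 8 weeks under optimal watering before the treatment. The control group (3 libraries) stayed well watered, and the drought stress group (3 libraries) spent 4 weeks with soil moisture lowered to 25% of the control level. Each library held RNA of root tip meristems in which taproot and lateral root material was pooled by the study, so a value describes neither root type alone, and the titles do not tell container-grown from rhizotron-sown plants. The labels call the libraries of a group biological replicates.

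miR160 is one of the most conserved plant miRNAs. In Arabidopsis it directs the cutting of messenger RNAs of a small group of auxin response factors (ARF10, ARF16 and ARF17), which act mainly as repressors of auxin-responsive genes, and this control is needed for root cap formation and for lateral root development. The Argonaute protein that holds the miRNA cuts the target opposite the middle of the miRNA, between the bases that face miRNA bases 10 and 11. The sources used here attach no gene name to the 4 oak transcripts, so they are given by their identifiers in the PM1N transcript set, and no function is assigned to them.

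Both miRNA sequences behind the name are shown first, because the 2 isoforms paired differently with the sites. Capitals mark the seed (bases 2 to 8) and base 15, the single base at which the isoforms differed (A15U, with the A isoform first and positions counted from the 5′ end of the miRNA).
A isoform: uGCCUGGCucccugAaugcca
U isoform: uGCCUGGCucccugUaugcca
The tables gave both sequences under one family name, and the lettered member of the family to which each belongs is not given in the sources used here. None of the 33 other miRNA sequences listed in the tables shared bases 2 to 8 with miR160.

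The 4 target sites are shown as RNA, 5′ to 3′, with capitals at the 3 of 21 bases that were not the same in all of them. Positions count from the first base of each transcript.
Qrob_T0327960.2, bases 1377 to 1397: UGgcauGcagggagccaggca
Qrob_T0438850.2, bases 1995 to 2015: AGgcauAcagggagccaggca
Qrob_T0535990.2, bases 1326 to 1346: AGgcauAcagggagccaggca
Qrob_T0636470.2, bases 1332 to 1352: UAgcauGcagggagccaggca
The 18 bases in lower case were identical in the 4 sites, and they included the whole stretch that faces miRNA bases 1 to 14. The sites varied only where they face miRNA bases 15, 20 and 21, so all variation lay on the far side of the cut from the seed. Qrob_T0438850.2 and Qrob_T0535990.2 carried the same 21 bases. Qrob_T0636470.2 differed from these by 3 bases, Qrob_T0327960.2 differed from them by 2 bases, and Qrob_T0327960.2 and Qrob_T0636470.2 differed from each other by 1 base. From the slice position a read covers the site bases facing miRNA bases 10 to 1, which all 4 sites shared, and then runs past the site. The sequence past the sites was not compared, so it is uncertain whether calls on different transcripts are separate events. How reads that fit more than 1 transcript were counted is not given in the sources used here. No other miRNA name was called on any of the 4 transcripts.

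The slice positions were 1388 on Qrob_T0327960.2, 2006 on Qrob_T0438850.2, 1337 on Qrob_T0535990.2 and 1343 on Qrob_T0636470.2. They stayed at the same base in every library. In all 24 miR160 calls the slice position faced miRNA base 10, against 194 of 231 calls (84.0%) in the whole series. The program used by the study places the slice position from the alignment. The match to base 10 and the unchanged positions are therefore not separate evidence of cutting.

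The first comparison asked whether the set of miR160 targets depended on watering. It did not vary in these libraries. The 4 sites were called in each of the 3 control and each of the 3 drought libraries, a mean of 4 ± 0 (SD, n = 3) in both groups, and no other miR160 site was called in any of them. Over the series 16 of the 89 miRNA-site pairs (18%) were called in all 6 libraries, and the 4 miR160 pairs were among them. Because the total number of calls differed between libraries, the share held by miR160 ran from 8.89% in control replicate 2 (4 of 45 calls, exact Clopper-Pearson 95% interval 2.48% to 21.2%) to 12.1% in drought replicate 1 (4 of 33 calls, 3.40% to 28.2%). These intervals cover counting error of the calls alone. The deposited tables list no read numbers, and the read totals given by the study, which were not equal between libraries, were not used here. An equal number of sites therefore says nothing about equal amounts of cut RNA.

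Among the miRNAs with auxin-linked targets in other plants, the number of sites was less even. miR167, which cuts other auxin response factors, had 2 sites in each control library and 3, 4 and 4 in drought replicates 1, 2 and 3. miR390, which starts the production of small RNAs against a further group of auxin response factors, had 0 in each control library and 2, 1 and 1 under drought. miR393, which cuts messenger RNAs of auxin receptors, had 1, 2 and 2 sites in control and 1, 3 and 2 under drought. miR164, which cuts messenger RNAs of NAC transcription factors, had 1 site in control replicate 1 and 0 elsewhere. Of the distinct sites of these families, 2 of 4 for miR167, 1 of 3 for miR393, 0 of 3 for miR390 and 0 of 1 for miR164 were called in all 6 libraries, and 4 of 5 for miR396, whose known targets are growth-regulating factors. By the Allen score described below, every listed site of these families had a higher mismatch penalty than any miR160 site. Whether this penalty goes with being called in every library was not tested. A miR157 site with a score of 2 was called in all 6, while no miR172 site was, although some of those also scored 2. The differences of miR160 from miR167, miR390, miR393, miR164 and miR396 were not tested, nor were those between control and drought in these families. How many of the 27 miRNA names had counts that did not overlap between the conditions was not determined. The counts of miR167 and miR390 therefore cannot be set against such a share. All sites in every library was not particular to miR160, since the only listed site of miR157 was also called in all 6.

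The strength of the cleavage signal was described by the degradome category. In category 0 more reads start at the slice position than at any other base of that transcript. In category 2 another base has more, while the slice position still exceeds the usual level, and categories 1, 3 and 4 stand for a shared maximum, a position no higher than the usual level and a single read. Category 0 made up 19 of the 24 miR160 calls (79.2%), against 46.8% of the 231 calls in the series and 43.0% (89 of 207) for the other miRNAs. Among the pairs called in every library the gap was narrower, with 58.3% (42 of 72 calls) for the 12 pairs of other miRNAs. Of these, the miR396 sites had 18 of 24 calls in category 0 (75%) and the miR166 sites 10 of 12 (83.3%), so a share like that of miR160 was also found in other families. The remaining 5 miR160 calls were in category 2, and no miR160 call was in category 1, 3 or 4.

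Qrob_T0535990.2 and Qrob_T0636470.2 were in category 0 in all 6 libraries, as were 50% of the 16 pairs called in every library. The cut at miR160 base 10 was thus the highest read position of these transcripts with and without drought. Qrob_T0327960.2 was in category 2 in replicate 1 and in category 0 in replicates 2 and 3, both in control and under drought. The category had a mean of 0.667 ± 1.15 (SD, n = 3) in each condition (p = 1 by the two-sided exact permutation test). Qrob_T0438850.2 was in category 0, 2 and 2 in control and 2, 0 and 0 under drought. Its mean category was 1.33 ± 1.15 for control (SD, n = 3), against 0.667 ± 1.15 for drought (SD, n = 3). The difference of −0.667 was within the replicate spread (p = 1 by the two-sided exact permutation test, adjusted p = 1 over the 16 pairs). It was −1.33 without control replicate 1 or drought replicate 1 (p = 0.4 by the same exact test for each) and −0.333 without any one of the other 4 libraries. Both conditions held libraries in category 0 and in category 2 at both of these sites, so the groups overlapped. The smallest p of this test is 0.1 for 3 against 3 libraries, so no site could have passed 0.05.

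**Figure D1:**
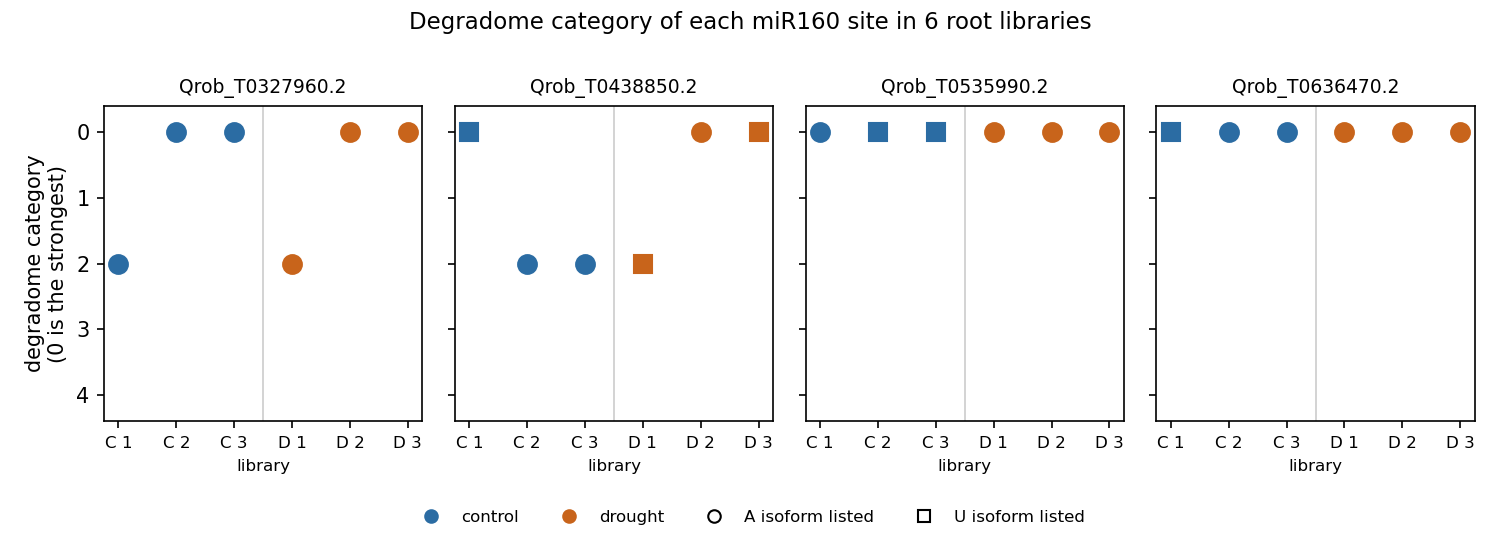
Degradome category of the 4 miR160 sites (vertical axis, 0 at the top) in control (C) and drought (D) replicates 1 to 3 (horizontal axis). Each point is 1 call, circles mark the A isoform and squares the U isoform. Qrob_T0535990.2 and Qrob_T0636470.2 stayed in category 0 in all 6 libraries, and the other transcripts were in category 0 or 2 in both conditions.

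Per library, 3 of the 4 sites were in category 0 in each control replicate, and 2, 4 and 4 in drought replicates 1, 2 and 3. The mean number was 3 ± 0 for control (SD, n = 3), against 3.33 ± 1.15 for drought (SD, n = 3). Drought replicate 1 was the only library with both Qrob_T0327960.2 and Qrob_T0438850.2 in category 2, and drought replicates 2 and 3 were the only ones with all 4 sites in category 0. The mean category of the 4 sites was 0.5 in every control library and 1, 0 and 0 under drought. The drought libraries thus lay on both sides of the control value, with a mean of 0.333 ± 0.577 (SD, n = 3), and without drought replicate 1 the mean category under drought was 0. Control replicate 1 set the site on Qrob_T0327960.2 apart from the other control libraries, and without it that site had a mean category of 0 in control and 0.667 under drought.

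The identical target sequences of Qrob_T0438850.2 and Qrob_T0535990.2 did not give identical categories. A category sets the slice position against the other bases of its own transcript, so it does not compare the amount of cut RNA between transcripts. Their categories differed in 3 of 6 libraries, control replicates 2 and 3 and drought replicate 1, and in each of these Qrob_T0535990.2 was in category 0 and Qrob_T0438850.2 in category 2. Qrob_T0438850.2 never had the lower category of this pair. When both were counted as 1 site with the lower category kept, miR160 had 3 sites in every library. The mean number of sites in category 0 was then 2.67 in both conditions and the mean category 0.222 in both, so the differences between the conditions in these measures became 0.

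The listed isoform was read from the aligned sequences. Each call named a single isoform, and because both carry the same name in the tables, it is not known whether the other was also searched or kept at that site. The counts therefore describe what was listed, not how much of each isoform was present or active. The A isoform was listed in 18 of the 24 calls and the U isoform in 6. In control the U isoform was listed in 4 of 12 calls, with 2 in replicate 1 and 1 in each of the others. Under drought it was listed in 2 of 12 calls, with 1, 0 and 1 in the replicates. The means were 1.33 ± 0.577 in control and 0.667 ± 0.577 under drought (SD, n = 3 for both), and the groups overlapped at a count of 1. Over the series more than 1 isoform was listed for 14.9% of the 47 pairs called in more than 1 library. Of those 7 pairs, 3 belonged to miR160 and 4 to other miRNAs.

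The isoform that was listed changed from site to site. Qrob_T0327960.2 had the A isoform in all 6 libraries. Qrob_T0636470.2 had the U isoform in control replicate 1 and the A isoform in the other 5 libraries. Qrob_T0438850.2 had the U isoform in control replicate 1 and drought replicates 1 and 3, and Qrob_T0535990.2 had it in control replicates 2 and 3. Although these transcripts carry the same 21 bases, they were listed with different isoforms in 5 of 6 libraries and with the same one, the A isoform, in drought replicate 2 alone.

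The isoforms differed in how base 15 met the sites. The U isoform paired at base 15 with Qrob_T0438850.2 and Qrob_T0535990.2 and left base 21 as its single mismatch, with 20 of 21 bases paired. Its Allen score, a mismatch penalty with 0 for a perfect match, was 1 there. The minimum free energy (MFE) of this duplex was −45.9 kcal/mol, lower than the −45.4 of the fully matched duplex, and the MFE ratio, the energy of the duplex over that of a fully matched one, was listed as 1. The A isoform had mismatches at bases 15 and 21 with the same sites. Its Allen score was 2 there, its free energy −41.2 kcal/mol and its MFE ratio 0.912. All these duplexes were fully paired from base 1 to 14, which covers the seed and the cut.

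With Qrob_T0636470.2 the U isoform formed a wobble pair at base 15 and scored 2.5 (Allen) at an MFE ratio of 0.932. The A isoform was mismatched at base 15 there, and scored 3 at an MFE ratio of 0.832. Base 20 was a mismatch with either isoform. Base 21 could pair by its letters, but the deposited duplex left it open next to that mismatch, and both deposited scores count it as a mismatch. With Qrob_T0327960.2 the A isoform had base 15 as its single mismatch and scored 1 at an MFE ratio of 0.929. From the bases alone the U isoform would have a single wobble pair with this site and a score of 0.5, below that of every listed miR160 duplex, yet it was not the one listed in any of the 6 libraries.

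**Figure D2:**
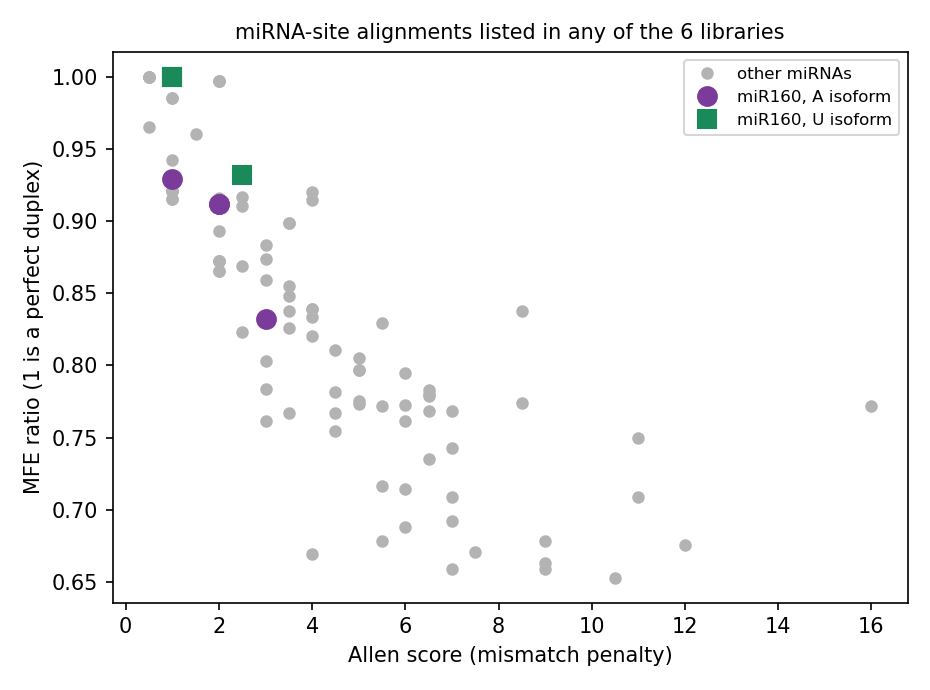
MFE ratio (vertical axis, no unit) against Allen score (horizontal axis, no unit) for the 96 distinct miRNA-site alignments of the 6 libraries, with grey points for the 89 of other miRNAs. The 7 miR160 alignments lie at scores of 1 to 3, and those of Qrob_T0438850.2 and Qrob_T0535990.2 share their points. At 1.00 and 0.932 the U isoform squares lie above the A isoform circles of the same sites, at 0.912 and 0.832.

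Counted once each, the 7 miR160 alignments had a median Allen score of 2 and a median MFE ratio of 0.929, against 3.50 and 0.835 over all 96 alignments. Of the 89 alignments of other miRNAs, 36 (40.4%) had an Allen score of at most 3, the highest value of miR160. The scores of miR160 were therefore also found among other families.

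The p-value of each call was examined next. CleaveLand4, the program used by the study, gives the chance that a position of the call's category falls on the slice position of an alignment ranked as high. That chance depends on how large a part of all transcriptome positions falls in that category (the category density) and on the rank of the alignment, and rank 1 is the best. The miR160 p-values ran from 0.000330 to 0.0285 with a median of 0.000856, against a median of 0.0113 over all 231 calls. Each is uncorrected for the number of miRNAs searched.

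In control the p-value of Qrob_T0327960.2 was 0.0136 in replicate 1, 0.000346 in replicate 2 and 0.000330 in replicate 3, and under drought it was 0.0126, 0.000334 and 0.000355. The high values were those of the category 2 calls, 1 in each condition. The mean of −log10 p was 2.94 ± 0.927 for control (SD, n = 3), against 2.94 ± 0.904 for drought (SD, n = 3). They differed by 0.0054 (p = 0.9 by the two-sided exact permutation test, adjusted p = 0.9 over the 16 pairs). The sign of this difference rested on single libraries, since it was −0.53 without control replicate 1, −0.26 without drought replicate 2 and −0.25 without drought replicate 3.

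For Qrob_T0438850.2 the p-value was 0.000661, 0.0285 and 0.0267 across the control replicates, in order, and 0.0126, 0.000668 and 0.000710 across those under drought. Control replicate 1 and drought replicates 2 and 3 were the low values, so the groups overlapped. The mean of −log10 p was 2.10 ± 0.936 for control (SD, n = 3), against 2.74 ± 0.730 for drought (SD, n = 3). They differed by 0.64, less than the spread (p = 0.4 by the two-sided exact permutation test, adjusted p = 0.8). Without control replicate 1 the groups at this site no longer overlapped, with −log10 p from 1.55 to 1.57 in control and from 1.90 to 3.18 under drought, and the difference was 1.18. It was 1.06 without drought replicate 1, and from 0.36 to 0.44 without any one of the other 4 libraries. The share of the 16 pairs without overlap when control replicate 1 is left out is not given. Drought replicate 1 was in category 2, like control replicates 2 and 3, but at rank 1 where these were at rank 2. At rank 1 the p-values of these control replicates would be 0.0143 and 0.0135, against 0.0126 in drought replicate 1.

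For Qrob_T0535990.2 the p-value was 0.000661, 0.000692 and 0.000330 in control and 0.000611, 0.001002 and 0.000710 under drought. The lowest value was in control replicate 3 and the highest in drought replicate 2. The mean of −log10 p was 3.27 ± 0.180 for control (SD, n = 3), against 3.12 ± 0.110 for drought (SD, n = 3). The drought mean minus the control mean was −0.15 (p = 0.4 by the two-sided exact permutation test, adjusted p = 0.8). Without drought replicate 1 the groups at this site did not overlap, with −log10 p from 3.16 to 3.48 in control and from 3.00 to 3.15 under drought, and the difference was −0.20. Without control replicate 3 it was −0.049, and without drought replicate 2 it was −0.092. The share of the 16 pairs without overlap when drought replicate 1 is left out is not given, so the separation cannot be set against it. With each call of this site put at rank 1, the p-value of drought replicate 2 would be 0.000334. That lies between those of control replicates 1 (0.000330) and 2 (0.000346).

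For Qrob_T0636470.2 the p-value was 0.00132, 0.00138 and 0.00132 in control and 0.00122, 0.00134 and 0.00142 under drought, the narrowest range of the 4 sites. The mean of −log10 p was 2.87 ± 0.0120 for control (SD, n = 3), against 2.88 ± 0.0328 for drought (SD, n = 3) (p = 0.9 by the two-sided exact permutation test, adjusted p = 0.9). Drought replicates 1 and 3 held the lowest and the highest p-value, so the control values lay inside the drought range.

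With all 6 libraries kept, none of the 4 miR160 sites had groups that did not overlap, either in category or in −log10 p, against 6.25% of the 16 pairs called in every library for each measure. None of the 16 pairs had an unadjusted p under 0.05 in either exact permutation test, and the smallest adjusted p was 1 for the category and 0.8 for −log10 p. With 3 against 3 libraries the smallest possible p of either test is 0.1, so no pair could have passed 0.05.

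Alignment ranks were recovered from the p-values. Qrob_T0327960.2, listed with the A isoform alone, was at rank 1 in all 6 libraries. Qrob_T0636470.2 was at rank 4 in all 6, with the A isoform listed in 5 and the U isoform in 1. Qrob_T0438850.2 was at rank 2 in 5 libraries and at rank 1 in drought replicate 1. Qrob_T0535990.2 was at rank 1 in control replicate 3, at rank 3 in drought replicate 2 and at rank 2 in the other 4 libraries. At this site the A isoform was listed at rank 2 or 3 and the U isoform at rank 1 or 2. In drought replicate 2 the A isoform had the same Allen score and MFE ratio on Qrob_T0438850.2 and Qrob_T0535990.2, yet the ranks were 2 and 3. A rank step between these transcripts therefore need not reflect a difference in pairing, and how equal alignments were ordered was not tested.

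All 6 calls of Qrob_T0535990.2 were in category 0, and their p-values spanned 3.04-fold. At rank 1 throughout, with the category density of each library kept, they would span 1.16-fold, from 0.000305 to 0.000355, and the difference in mean −log10 p would be 0.0060 in place of −0.15. The category 2 calls of Qrob_T0438850.2 spanned 2.25-fold as deposited and 1.13-fold at rank 1. For Qrob_T0636470.2, with one rank throughout, the span of 1.16-fold came from the category 0 densities, which were lowest in drought replicate 1 (0.0305% of positions) and highest in drought replicate 3 (0.0355%).

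**Figure D3:**
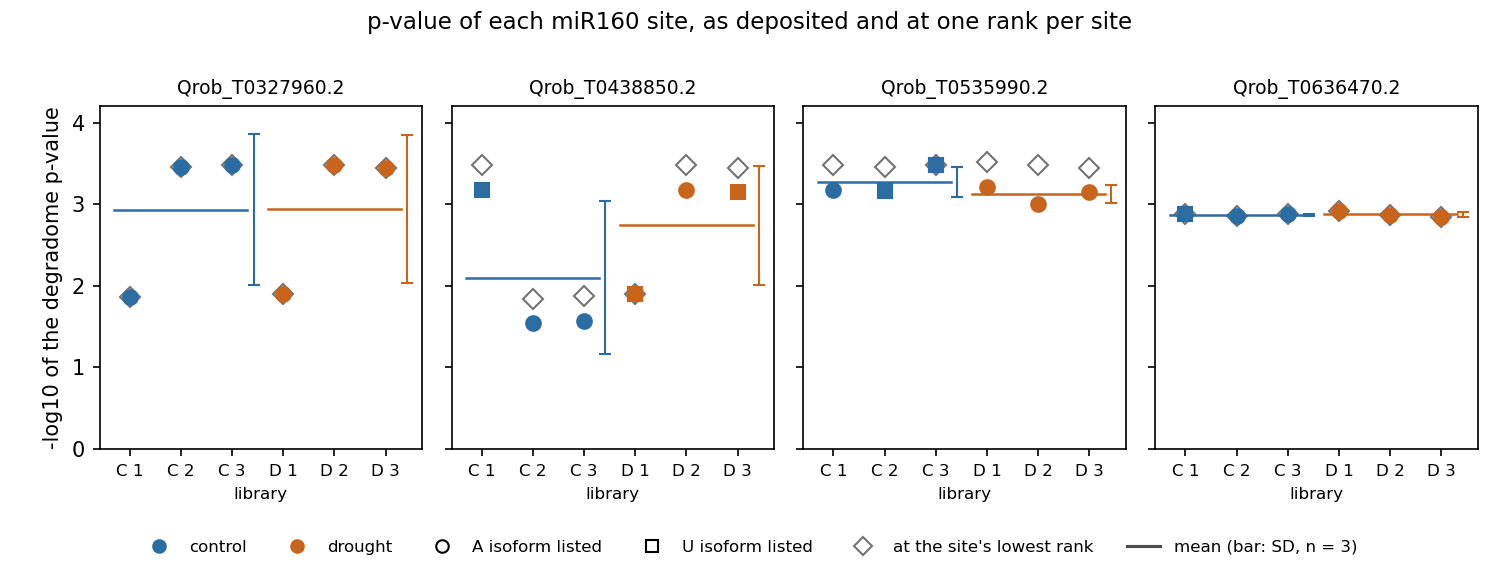
−log10 of the p-value (vertical axis) of the 4 miR160 sites in control (C) and drought (D) replicates 1 to 3 (horizontal axis). Filled points are the deposited values (circles for the A isoform, squares for the U isoform), lines and bars give the mean and SD of each group, and open diamonds give the value at the lowest rank of the site. The points of Qrob_T0636470.2 stay between 2.85 and 2.91, and those of Qrob_T0327960.2 and Qrob_T0438850.2 fall below 2 where the call was in category 2.

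The category pattern over the 6 libraries was also compared with that of the 15 other pairs called in every library, by the summed absolute difference in category. For Qrob_T0438850.2 the closest was the miR396 site at 1215 of Qrob_T0088850.2, with a sum of 5, and 12 further pairs were at 6. One of these was Qrob_T0535990.2, whose category did not vary, so a sum of 5 was not a close likeness. That miR396 site had a mean category of 2 in control and 1 under drought. It was the only pair of the 16 whose category groups did not overlap. For Qrob_T0327960.2 a total of 10 pairs shared the smallest sum of 4.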

How the data were processed

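Degradome libraries of oak roots (3 control, 3 drought) were compared. Per the file headers, each library was run by the authors through CleaveLand4 4.5 with a p-value limit of 0.05, categories up to 4 and the longest transcripts of the PM1N set. The deposited columns used were the p-value, the category, the Allen score, the MFE ratio, the free energies, the positions and the aligned sequences. Calls above the limit are not listed, and read numbers were not used.

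Entries named qrb-miR160 were selected and isoforms read from the alignments. The category density of a library was taken as the largest step of which all −ln(1 − p) of a category are whole multiples (tolerance 0.001 per unit of divisor), which gave the ranks. The step search was tested on simulated data and recovered the density and ranks in 200 of 200 sets. Every simulated set held a call at rank 1, so the search was not tested for a category that lacks one. It was also not tested for categories with few calls, such as category 3 of control replicate 1 with 1 call. The miR160 calls were in categories 0 and 2, which held at least 7 calls in each library. The groups were tested at each site by exact permutation (two-sided, 20 assignments), with Benjamini-Hochberg adjustment over the 16 pairs called in every library. All miR160 sites were named, and of other miRNAs those closest in category pattern. Other families named for comparison were picked: miR396, miR166, miR157, miR172 and the auxin-linked list of miR167, miR390, miR393 and miR164. Members and lists were chosen with earlier results of these data known. Tools were Python 3.11.15, scipy 1.17.1, numpy 2.4.6, matplotlib 3.10.9 and pandas 2.3.3.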

Additional observations from a re-analysis of the deposited data

How the results depend on the processing

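The alternatives were categories 0 to 2, a stricter p-value limit (0.01), a single category density for all libraries (their highest), merged target sequences, one rank per site, a replicate block and leaving out each library. With the limit of 0.01 the category 2 calls were lost, 19 calls remained, and the difference in miR160 sites per library (drought minus control) became 0.333. The other settings with all libraries left it at 0, as did each library left out. With merged target sequences the differences in category 0 sites and in mean category became 0. With one rank per site the −log10 p difference of Qrob_T0535990.2 became 0.0060, because its ranks differed between libraries. With the single density the differences of Qrob_T0327960.2 and Qrob_T0636470.2 became 0, which follows from equal categories and ranks.

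Without one library in turn, the difference ran from 0 to 1 for sites in category 0, from −0.5 to 0 for the mean category and from −0.833 to −0.333 for calls with the U isoform. It ran from −0.53 to 0.53 for −log10 p of Qrob_T0327960.2 and from −0.011 to 0.021 for that of Qrob_T0636470.2. The number of miR160 sites whose groups did not overlap ran from 0 to 1 for −log10 p (1 without control replicate 1 or drought replicate 1) and stayed 0 for the category. The share over the 16 pairs called in every library is not given with a library left out, so these counts cannot be set against it.

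The replicate numbers were not taken as pairs, since deviations of same-numbered libraries correlated at 0.0735, 0.249 and −0.0569 over the 16 pairs. With the replicate block the difference in sites stayed 0 and those in category 0 sites and U isoform calls stayed 0.333 and −0.667. The exact sign-flip test then has a smallest p of 0.25. The tables give no read numbers, so a missing difference is not a limit on the amount of cut RNA.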
